A study of Felis catus with 12 samples.

Results

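The cytosolic ribosomal protein genes were followed in left ventricular tissue of 12 cats. They were chosen by symbol, as names made of RPL or RPS and a number, with an optional A, X or L and an optional further number. The names RPLP0, RPLP1, RPLP2 and RPSA were taken as well, and the RPS6K kinases were not. The rule found 83 of the 30785 genes listed, 51 of the large and 32 of the small subunit. The hearts came from client-owned cats, were sampled post mortem, and gave 1 direct RNA library per cat with no replicate library. The libraries were run with 4 barcodes on each of 3 flow cells, here called A (cats 11, 23, 30 and 31), B (cats 10, 15, 35 and 36) and C (cats 22, 29, 37 and 38). The labels give no genotype, breed, treatment or disease group, so the flow cell is the only grouping, and within it each cat is its own sample. Differences between flow cells therefore cannot be told apart from differences between the cats that were run on them. Age was used for 9 cats and the myocardial fibrosis percentage for 8. The numbers of cats 22 and 29 are not in the study's list of sequenced cats, although its cohort table gives both traits for them. These libraries therefore entered the comparisons of flow cells but not the main ones of age or fibrosis.

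Ribosomal proteins and ribosomal RNA form the large subunit, which joins amino acids, and the small subunit, which holds the mRNA and reads its codons. The proteins are needed in fixed proportions, and most of their mRNAs carry a terminal oligopyrimidine (TOP) start that lets the mTORC1 kinase switch their translation together. A few genes have a second form. The best known in heart and skeletal muscle is RPL3L, which can take the place of RPL3 close to the site where the peptide bond is made. Because these mRNAs are short and abundant, mammalian genomes also hold many near-identical copies of them, which can share reads with the genes.

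Of 79 canonical ribosomal protein genes, 47 of the large and 32 of the small subunit, all 79 were listed and 77 matched the rule. One of the 2 outside it was FAU, which encodes a ribosomal protein fused to a ubiquitin-like protein. The other 6 members were the paralogues RPL3L, RPL7L1, RPL10L, RPL22L1, RPL26L1 and RPS27L. A gene was tested when 3 or more of the 10 libraries on the study's list held 10 or more of its reads. This left 8715 genes and 77 members, 47 large and 30 small. The 6 members that were not tested were RPL12, RPL24, RPL32, RPS18, RPS24 and RPL10L.

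The libraries held 789257 to 2263110 reads on genes, 15753626 in all, and 12189 to 13987 genes with a read. All 12 cardiomyocyte markers had reads, with 11.0% to 17.2% of a library's reads. Markers of other cells were not spread evenly. The 6 smooth muscle and pericyte markers took 0.107% of the reads in cat 11 and 0.105% in cat 31, and at most 0.0451% elsewhere. The 8 fibroblast markers took 0.0990% to 0.327% on flow cell A, 0.0271% to 0.0767% on B and 0.0843% to 0.162% on C. Of 9 immune cell markers, 2 (LYZ and MS4A1) were at 0 in every library, and the sum was highest in cats 35 (0.0721%), 11 (0.0306%) and 31 (0.0272%), against at most 0.0164% in the others. In bulk tissue, fewer cells of a type and less RNA per cell cannot be told apart.

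The ribosomal protein genes took 937300 reads, or 5.82% ± 0.972 of the reads of a library (SD, n = 12). On flow cell A the share was 6.90% in cat 11, 4.78% in cat 23, 4.77% in cat 30 and 6.77% in cat 31. On flow cell B it was 5.72% in cat 10, 5.73% in cat 15, 7.42% in cat 35 and 6.03% in cat 36. On flow cell C it was 5.39% in cat 22, 6.62% in cat 29, 5.48% in cat 37 and 4.22% in cat 38. The lowest and the highest cat differed 1.76-fold, and the 3 flow cells overlapped. Counting error was small beside this, since the exact binomial 95% interval was 7.38% to 7.47% in cat 35 and 4.19% to 4.25% in cat 38. Such intervals cover counting error only.

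**Figure D1:**
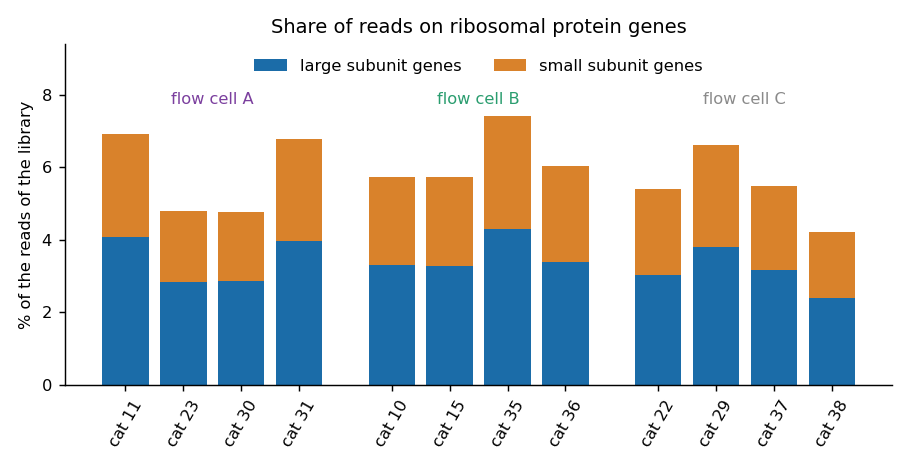
Stacked bars give the percentage of the reads on genes that fell on large subunit genes (blue) and small subunit genes (orange) in each of the 12 libraries, ordered by flow cell. Cat 35 had the highest total (7.42%) and cat 38 the lowest (4.22%), and the large subunit genes took the larger part in every library.

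Levels are given as scaled read values, that is, reads divided by the size factor of the library. In direct RNA sequencing each read is 1 RNA molecule, so the values were not divided by gene length. Counted per molecule, the highest member was RPLP1, an acidic protein of the stalk that recruits elongation factors, at 6147 ± 1125 (SD, n = 12). It was followed by RPL41, which encodes one of the shortest proteins known (4399 ± 761), RPS2 (2891 ± 522) and RPL13 (2812 ± 881). Its partners in the stalk were lower, RPLP2 at 1690.3 ± 542 and RPLP0, which anchors the stalk, at 582 ± 169.8. Proteins that line the entry of the mRNA channel were at 2891 (RPS2), 1655 ± 709 (RPS9) and 1339 ± 375 (RPS3). RPL5 and RPL11, which bind the smallest ribosomal RNA and can hold back MDM2, were at 383 ± 115 and 792 ± 188. RPS6, the substrate of the S6 kinases, was at 267 ± 129. The median over the 77 tested members was 759.6.

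At the lower end of the tested members stood RPL36A (8.86 ± 5.23), the paralogue RPS27L (12.9 ± 6.99), RPS29 (18.8 ± 5.91) and RPL30 (25.5 ± 15.8). Below the filter, RPL12 and RPL32 had 2 to 12 reads per library, RPS24 had 1 to 11, RPL24 had 1 to 8 and RPS18 had 0 to 3, while 29 members had a median of at least 1000 reads. How reads that fit several copies were assigned is not given in the sources used here, so the levels of these genes, and their ranks beside other members, are uncertain. RPL36AL, a near copy of RPL36A that the rule does not take, had 61 to 220 reads and held 86.1% to 99.1% of the reads of that pair.

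The sums over the subunits were compared next. The reads on large subunit genes were 1.37 ± 0.0631 times those on small subunit genes (SD, n = 12). All 4 libraries of flow cell A (1.43, 1.44, 1.49 and 1.41 in cats 11, 23, 30 and 31) lay above all 8 others, which ranged from 1.29 to 1.37. RPLP1 and RPL41 together supplied 13.1% to 17.3% of the member reads, and without them the ratio was 1.02 ± 0.0335. On that measure flow cell A (1.03 to 1.06) overlapped both flow cell B (0.975 to 1.05) and flow cell C (0.966 to 1.03). By the typical gene, the order of the subunits was the opposite, with a median read count of 414 for 47 large and 877 for 30 small subunit members.

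Members tended to be high or low in the same cats. The common level, the median log2(value + 1) of the tested members, ran from 8.81 in cat 38 to 9.94 in cat 35. The Pearson correlation of a member with the common level, over 12 libraries that share size factors and composition, had a median of 0.782. It was above 0 for 74 of 77 members and above 0.9 for 13, of which 10 were large and 3 small subunit genes. The median was 0.776 for the large and 0.788 for the small subunit. Over all 8715 tested genes the median was 0.0119. The members nearest to the common level were RPL28 (0.954), RPS20 (0.952) and RPS15 (0.952).

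Among 2683 tested genes that are not members and had a median of at least 50 reads, 6 correlated above 0.9 with the common level. The 5 highest were LOC105260418 (0.939), LOC101090165 (0.933), FAU (0.919) and 2 further genes with locus names (0.916 and 0.913). FAU is itself a ribosomal protein gene, with a mean of 788 ± 178.6. The file gives no gene name for the other 4. LOC105260418 was abundant, with values from 1455 in cat 38 to 2877 in cat 31, which places it among the high members.

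Each member was then compared with the common level. The SD of its departure (its log2 value minus the common level) was divided by the SD that counting error alone gives. This ratio had a median of 3.65 and was above 2 for 68 of 77 members, 40 of 47 large and 28 of 30 small. With 1 library per cat, spread between animals and spread between library preparations cannot be told apart in this ratio, and either would raise it above 1. The lowest ratio was that of RPL37 (1.32). The 6 highest were RPL3L (13.5), RPS9 (11.9), RPS2 (9.97), RPLP1 (9.68), RPL13 (9.29) and RPL41 (8.42). The SD itself was below the median of the tested members (0.266 on the log2 scale) for RPLP1 (0.184) and RPL41 (0.188). For RPL13 (0.269) and RPS2 (0.275) it was slightly above that median. The high ratio of these genes came with their many reads, which left a counting SD of 0.019 to 0.029. RPL3L (SD 1.09) and RPS9 (SD 0.47) departed by more.

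**Figure D2:**
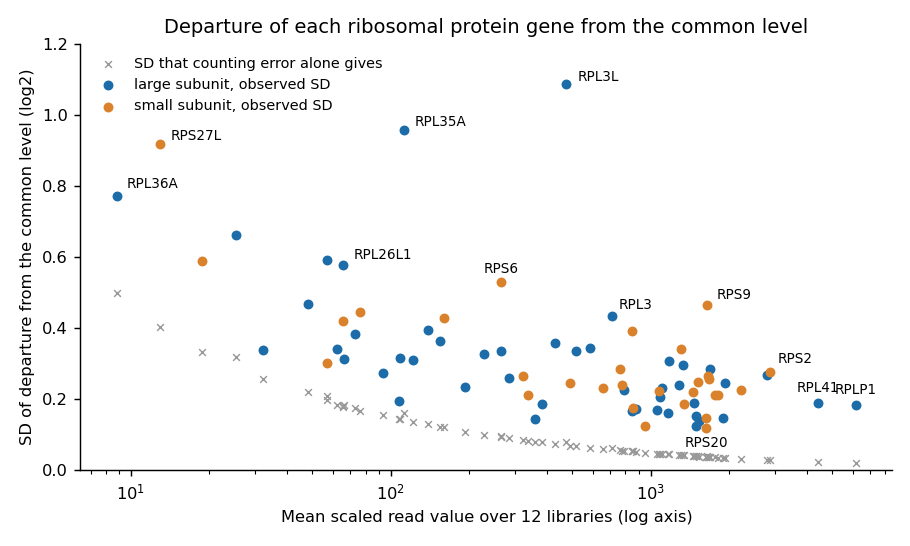
Each dot is a tested member, with its mean scaled read value (log axis) against the SD over 12 libraries of its departure from the common level (log2), blue for large and orange for small subunit genes. Grey crosses give the SD that counting error alone would leave. RPL3L (1.09) and RPL35A (0.96) stand far above the other members of their abundance, and RPS20 (0.12) was the lowest.

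RPL35A, singled out after its values were seen, had the next largest SD of departure after RPL3L (0.96). It encodes a large subunit protein that is mutated in some cases of Diamond-Blackfan anaemia. On flow cell A its value was 309.9 in cat 11, 172 in cat 23, 58.1 in cat 30 and 146 in cat 31. On flow cell B it was 62.0 in cat 10, 85.8 in cat 15, 97.7 in cat 35 and 37.4 in cat 36. On flow cell C it was 62.1 in cat 22, 63.2 in cat 29, 147 in cat 37 and 103 in cat 38. The highest value was 8.29 times the lowest, while the common level was higher in cat 36 (9.87) than in cat 11 (9.66). Its correlation with the common level was -0.130, and the other negative ones were those of the paralogues RPL26L1 (-0.618) and RPS27L (-0.230).

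The clearest difference between libraries within the family was the balance of RPL3L and RPL3. RPL3L took 9.45% of the reads of the pair in cat 31, 9.59% in cat 11 and 17.2% in cat 35. In the other 9 cats it took 36.7% (cat 37) to 63.7% (cat 29). The exact binomial 95% intervals of the 3 low cats ended at 18.8%, and those of the 9 others began at 32.8%. RPL3 and RPL3L differed in opposite directions in these cats. RPL3 was at 1033 in cat 11, 1268 in cat 31 and 1464 in cat 35, and at 321 (cat 30) to 730.4 (cat 29) in the others. RPL3L was at 109.6, 132 and 303 in the same 3 cats. It was lower than 303 in cats 23 (278) and 30 (210.4) as well, and reached 1282 in cat 29, so its range was 11.7-fold.

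**Figure D3:**
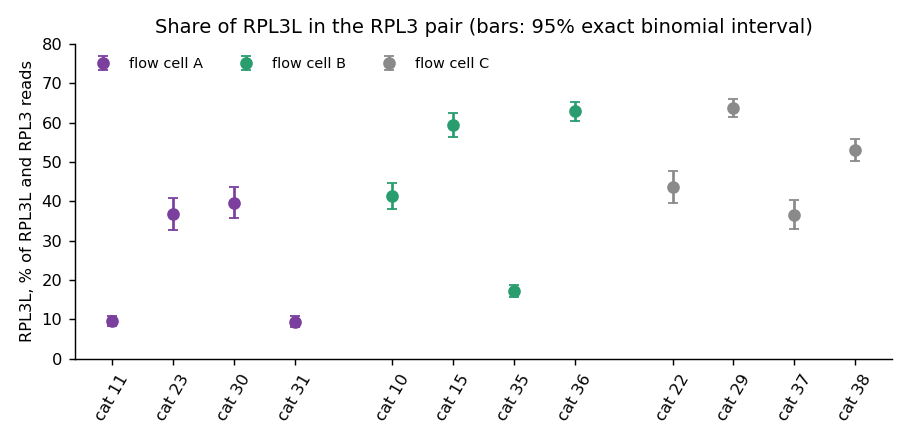
Points give RPL3L as a percentage of the reads on RPL3L and RPL3 in each library, coloured by flow cell, with 95% exact binomial intervals. Cats 11, 31 and 35 lie between 9.45% and 17.2%, and the other 9 cats between 36.7% and 63.7%.

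The 3 cats with the low RPL3L share were also the 3 with the highest sum of immune cell markers, given above, of which CD163 and C1QA, both macrophage genes, were the most abundant. CD163 was at 122 in cat 11, 107 in cat 31 and 388 in cat 35, and at 40.3 or less in the others. C1QA was at 98.0, 101 and 296 in these cats, and was also at 97.8 in cat 38, where the RPL3L share was 53.0%. Smooth muscle markers were high in cats 11 and 31 only, and stood at 0.0242% in cat 35. The cardiomyocyte markers took 11.0% of the reads in cat 11 and 15.4% in cat 31, with cat 35 between them, and 12.3% to 17.2% in the other cats. MYL2 alone supplied 47.3% to 76.4% of the reads on these markers. Without it the other 11 markers took 3.37% in cat 11, 3.63% in cat 31 and 6.11% in cat 35, and at most 6.86% in the other 9 cats, of which cat 30 was the lowest. Cats 11 and 31 lay below all others on this measure and cat 35 within them. TNNI3, the troponin I of adult heart muscle, was the 1 of 12 markers whose values in these 3 cats (1780.5, 2488 and 2639) all lay below those in the other 9 (3267 or more). The part of these cells in the RPL3L share was not tested.

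The other paralogue pairs varied less or were shallow. RPL22L1 took 22.02% to 43.9% of the reads with RPL22, and its value was highest in cats 31 (894) and 11 (839), against 236 (cat 38) to 694.5 (cat 36) in the others. RPL26L1 took 27.5% to 62.8% with RPL26. Its own value was among the steadiest of the members (65.7 ± 12.0) and did not follow the common level, while RPL26 (93.0 ± 22.4) did so more closely (0.717). RPL7L1, which acts in the assembly of the large subunit, took 2.61% to 10.3% with RPL7 and was at 152 in cat 11, 78.2 in cat 31 and 34.7 to 63.2 elsewhere. RPS27L, a target of p53, took 0.453% to 3.97% with RPS27, on 6 to 31 reads. RPL10L, a form of RPL10 made in the testis, had 4 reads over all 12 libraries, against 5605 for RPL10, and was at 0 on flow cells B and C.

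Flow cells were compared with limma on log2(value + 1) over all 8715 genes. In the F test over the 3 flow cells, 224 genes had an adjusted p under 0.05, which is 2.57% of those tested. Of the 77 members, 1 passed, RPS9 (adjusted p = 0.0393), and the next were RPL3L (0.0559) and RPS19 (0.0702). The call of RPS9 was lost when any 1 of 10 libraries was left out (adjusted p up to 0.107), and was kept without cat 10 or cat 29. Between flow cells A and B, 326 genes passed (3.74%), 204 of them lower on A (2.34%), and 3 of 77 members passed, all lower on A. Counted in either direction, the share of members that passed was close to that of all tested genes. For these 3 members the difference and its 95% interval are on the log2 scale.

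RPS9, whose protein lies at the mRNA entry, was at 1099.5, 715, 796 and 1404 in cats 11, 23, 30 and 31 of flow cell A. On flow cell B it was at 1739, 2304, 2043 and 3271 in cats 10, 15, 35 and 36, and on C at 1588, 2103, 1360.5 and 1435 in cats 22, 29, 37 and 38. All libraries of A lay below all of B, and A and C overlapped. RPS9 was 2.35-fold lower on A than on B (-1.23 ± 0.26 SE, from -1.78 to -0.69, limma adjusted p = 0.0201), and the adjusted p ran from 0.000638 to 0.0677 over its alternatives. It was above 0.05 without cat 11, 15 or 36.

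RPL3L was at 109.6, 278, 210.4 and 132 on flow cell A, at 408, 849.6, 303 and 933 on B and at 351, 1282, 358 and 477 on C, in the same order of cats. All libraries of A lay below all of B and C. It was 3.27-fold lower on A than on B (-1.71 ± 0.44 SE, from -2.63 to -0.79, limma adjusted p = 0.0408), and its difference from C was -1.62 (adjusted p = 0.0700). The adjusted p against B was above 0.05 without cat 10, 11, 15, 31 or 36 (up to 0.143), and without both cats 11 and 31 the difference was -1.21 (adjusted p = 0.374).

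RPS19, the gene most often mutated in Diamond-Blackfan anaemia, was at 663, 517, 336 and 814 on flow cell A, at 1005.5, 1101.5, 1083 and 1295 on B and at 937, 898, 742.5 and 755 on C. A lay below B throughout and overlapped with C. It was 2.02-fold lower on A than on B (-1.01 ± 0.24 SE, from -1.53 to -0.50, limma adjusted p = 0.0347), with an adjusted p from 0.00543 to 0.0915 over its alternatives and above 0.05 without cat 10, 11, 15, 23, 30 or 36. Without cats 11 and 31, the adjusted p was 0.0595 for both RPS9 and RPS19, and none of the 8715 genes passed between A and B.

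**Figure D4:**
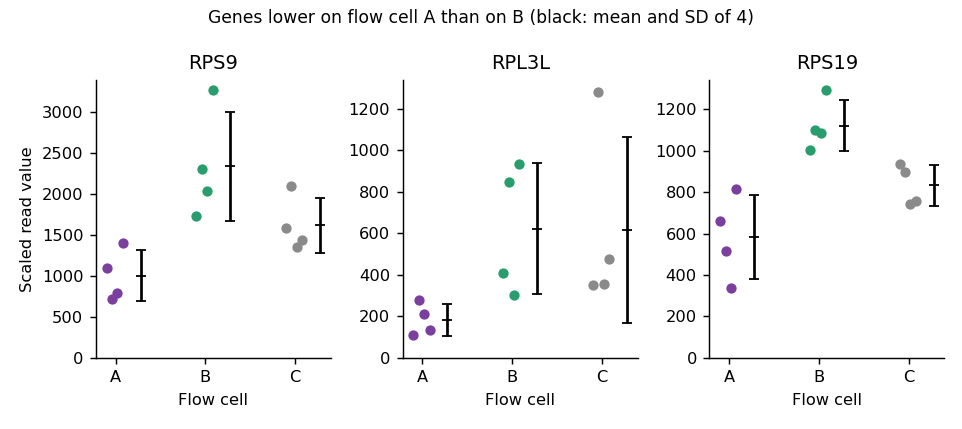
Points give the scaled read value of RPS9, RPL3L and RPS19 in the 4 libraries of each flow cell, and black bars the mean and SD of 4. The libraries of flow cell A lie below all those of B for each gene, and below all those of C only for RPL3L.

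Of the 77 members, 19 had the higher mean log2 value on A than on B, against 4456 of all 8715 tested genes. The next by the F test were RPS21, RPL13A, RPL13 and RPLP2 (limma F test, adjusted p = 0.116, 0.118, 0.126 and 0.132). Their differences between A and B were -0.85, -0.84, -0.88 and -0.84. The limma adjusted p-values of that contrast were 0.0617, 0.0575, 0.0633 and 0.0661. Over all 77 members the median difference between A and B was -0.23, against 0.02 over all tested genes. Single libraries moved this median, which was -0.13 without cat 23 or cat 30 and -0.40 without cat 31, and it was -0.59 without both cats 11 and 31. On A, 12 members lay entirely below flow cell B (15.6%, against 6.08% of all tested genes) and 0 entirely above (against 5.76%). The highest positive differences were those of RPL35A (1.12, adjusted p = 0.159) and RPS29 (0.82, adjusted p = 0.158). The mean log2 value was higher on A than on B for 7 of 8 fibroblast and 5 of 5 tested smooth muscle markers. For cardiomyocyte markers this was 1 of 12. By limma, 4 fibroblast and 2 smooth muscle markers were called higher on A, and 5 cardiomyocyte markers were called lower. Over all 8715 tested genes, 122 were called higher and 204 lower on A. The part of these markers in the members' differences was not tested.

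Between flow cells A and C, 145 genes passed (1.66%) and 0 members did by limma, with 6 members (7.79%) and 1594 genes (18.3%) at an unadjusted p under 0.05. edgeR on the recovered reads also called 0 members, against 143 genes (1.64%), and DESeq2 called 1 member (1.3%), against 493 genes (5.66%). The median difference of the members was -0.02, and without the libraries of cats 22 and 29 it was 0.24. Between B and C, limma called 0 of 8715 genes (0%), with 686 genes (7.87%) and 2 members (2.6%) at an unadjusted p under 0.05. edgeR called 0 genes and DESeq2 called 23 genes (0.264%) and 0 members. The median difference of the members was 0.26, and 66 of 77 had the higher mean on B, against 4371 of all 8715 genes with a median difference of 0.0018. The median of the members moved most without cat 38 or cat 29 of flow cell C. Without cat 38 it was 0.055, with 47 of 77 higher on B, and without cat 29 it was 0.43, with 72 of 77. Without any other single library it lay between 0.20 (cat 35) and 0.31 (cat 15).

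Age was compared next, since the study ranked genes by their correlation with traits of the cats. Spearman's rho with age over 9 cats was negative for 72 of 77 members, 46 of 47 large and 26 of 30 small, with a median of -0.500. Over all tested genes 52.5% were negative, with a median of -0.0167. No member passed the adjusted threshold, and neither did any of the 8715 genes (0%, by Spearman's rho and the exact permutation test, two-sided, adjusted by Benjamini-Hochberg). Without adjustment, 415 genes (4.76%) and 10 members (13.0%) had a p under 0.05, and all 10 were negative. That count of members changed with single cats. It was 1 without cat 31 or cat 36, 2 without cat 11 or cat 30, 24 without cat 15 and 26 without cat 38. Of all 8715 genes, 303, 483, 350, 488, 544 and 466 had such a p, in the same order of cats. With cats 22 and 29 added as labelled, 27 members and 469 genes did. With limma and flow cell as a covariate, 0 genes passed, while 29 members (37.7%) and 1010 genes (11.59%) had an unadjusted p under 0.05, with a smallest adjusted p of 0.254 among the members. Without cats 11 and 31, 62 of 77 members had a negative rho, with a median of -0.321. In that setting 0 members and 417 genes had an unadjusted p under 0.05 for rho. Because the members tended to be high or low in the same cats, these counts of members are not counts of independent results. The same holds for their counts between flow cells and for fibrosis.

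The lowest rho was that of RPL4, which lines the exit tunnel of the peptide. Its value was 956 in cat 11, 1152 in cat 31 and 1080.0 in cat 36, the 3 youngest of these cats, and 506 in cat 30, 584 in cat 23 and 759.8 in cat 15, the 3 oldest. In the middle 3 it was 809 (cat 10), 739.6 (cat 37) and 685 (cat 38), so the middle and the oldest cats overlapped. Its rho was -0.817 (two-sided exact permutation p = 0.0108, adjusted p = 0.816) and its r was -0.857 (exact permutation p = 0.00363, not adjusted). By the permutation test of r, the smallest adjusted p among the members was 0.930. RPL4 was chosen for its rho in these same cats, so its r is no separate evidence. The age farthest from the median was that of cat 30, and those of cats 15 and 36 tied for the next place. With cats 30 and 15 left out, r was -0.851, and with cats 30 and 36 left out, -0.704. On values centred within flow cells it was -0.904.

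RPS2 (rho = -0.800, exact permutation p = 0.0138, adjusted p = 0.837) and RPS16 (rho = -0.783, exact permutation p = 0.0172, adjusted p = 0.851) came next. Without cats 30 and 36 their r went from -0.800 to -0.565 and from -0.715 to -0.458, and centred on flow cells it was -0.804 and -0.817. The 3 highest values of rho were those of RPS14 (0.567, exact permutation p = 0.121), RPS27L (0.433, p = 0.250 by the same test) and RPL26L1 (0.417, p = 0.270), with adjusted p-values of 0.918 to 0.963. These 3 had a median of at most 75.5 reads. RPL3L and RPL35A had a rho of -0.0333 each (exact permutation p = 0.948).

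**Figure D5:**
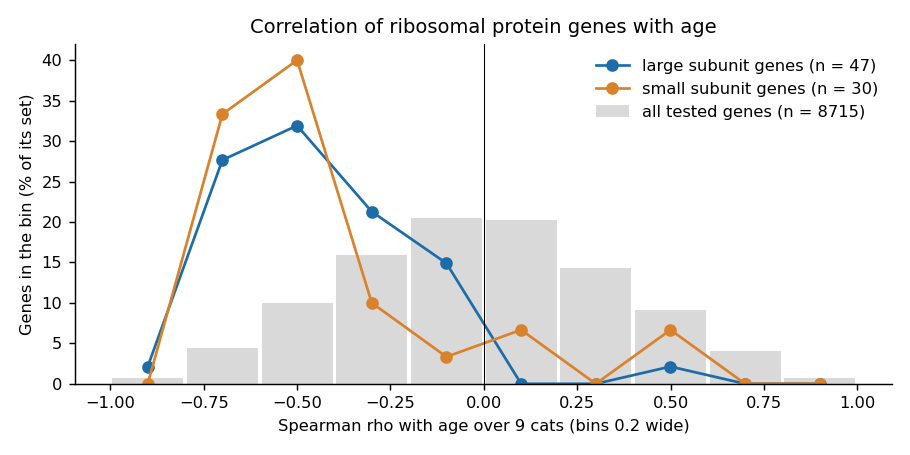
Lines give the percentage of 47 large (blue) and 30 small (orange) subunit genes whose Spearman rho with age over 9 cats fell in each bin of 0.2, and grey bars the same for all 8715 tested genes. The members centre near the median of -0.500 and all tested genes near -0.0167.

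Other measures were set beside age in the same cats. The ribosomal protein genes took 6.90%, 6.77% and 6.03% of the reads in the 3 youngest cats (11, 31 and 36), 4.77%, 4.78% and 5.73% in the 3 oldest (30, 23 and 15), and 5.72%, 5.48% and 4.22% in cats 10, 37 and 38. Library depth was lower in older cats (rho = -0.700, two-sided exact permutation p = 0.0433). None of the 6 tested immune cell markers had an unadjusted p under 0.05, and their rho ran from -0.567 to -0.300. Of 7 tested endothelial markers, 1 had an unadjusted p under 0.05, 1 had a negative rho, and the median was 0.400, with a highest rho of 0.783. The part of depth and of these cells in the members' rho was not tested. On reads that were not scaled for depth, 76 of 77 members and 85.7% of all tested genes were negative.

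For myocardial fibrosis over 8 cats, 53 of 77 members had a negative rho, against 49.3% of all tested genes, and the median was -0.0952. No member and none of the 8715 genes passed (0%, Spearman's rho, exact permutation). Without adjustment, 247 genes (2.83%) and 0 members had a p under 0.05, and limma called 0. With limma and flow cell as a covariate, 2 members (2.6%) and 363 genes (4.17%) had an unadjusted p under 0.05. The lowest rho were those of RPL10 and RPL19 (both -0.548, exact permutation p = 0.171) and RPS6 (-0.452, exact permutation p = 0.268), and among the highest were those of RPL7L1 (0.571, exact permutation p = 0.151) and RPL35A (0.381, exact permutation p = 0.360). The direction of the family turned without single cats. Without cat 35, 25 of 77 members were negative and the median was 0.179, and without cat 23 it was 35 of 77 with a median of 0.0714.

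Genes that work with the ribosomal proteins were read from lists beside them. FAU and RACK1, a scaffold on the small subunit, lie outside the rule. Both had a negative rho with age (-0.700 and -0.650) and neither was called between flow cells (limma F test, adjusted p = 0.444 and 0.575). Of 19 translation factors whose mRNAs also carry the TOP start, 16 had a negative rho with age, with a median of -0.200, and 0 passed. Between flow cells, 2 of the 19 passed the F test and were lower on A than on B, the elongation factor subunit EEF1D (-1.02, limma adjusted p = 0.0201) and the initiation factor subunit EIF3K (-0.91, limma adjusted p = 0.0201).

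Genes that build ribosomes or control TOP mRNAs lay on both sides of 0. Of 36 tested ribosome assembly factors, 17 had a negative rho with age (median 0.0333) and 0 were called between flow cells, with a median difference of 0.34 between A and B, opposite in sign to that of the members. Of 12 tested genes of mTORC1 and its control of TOP mRNAs, 5 had a negative rho with age (median 0.05). The lowest was RHEB, the GTPase that activates mTORC1 (rho = -0.950, exact permutation p = 0.000353, adjusted p = 0.769). EIF4E, which binds the mRNA cap, was higher on A than on B (1.02, limma adjusted p = 0.0491), and the other 11 were not called.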

How the data were processed

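RNA of the left ventricular free wall of 12 cats was read by direct RNA sequencing, 4 barcodes on each of 3 flow cells. The authors called bases with Guppy, kept reads above a quality minimum, used Minimap2 to place them on felCat9, and used FeatureCounts to count them. The values the authors deposited are signal, namely the reads of a gene over the size factor of its library. Divided by the value of 1 read, 100% of them were whole (within 0.001), so the reads could be recovered. The authors' handling of reads with several matches is not given in the sources used here.

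Symbols were matched to the rule given. Testing needed 10 reads in 3 of 10 listed libraries. Flow cells were compared by limma (trend) on log2(value + 1), with edgeR's quasi-likelihood test and DESeq2 on the recovered reads as alternatives, and traits by Spearman's rho with an exact permutation of the cats. Adjusted p-values are Benjamini-Hochberg values over all tested genes, except those of DESeq2. Its own adjusted values were used, which by default can leave out genes with low or outlying counts. A fold change on the log2(value + 1) scale understates the change of low genes. Age and fibrosis per cat came from the study's table. The count models were alternatives because the values are not counts. The limma comparison of flow cells and the Spearman test were each tried on simulated data, and the alternatives were not.

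Named with values were the 4 highest and 4 lowest tested members, paralogues with their parents, the 6 largest departures (median of at least 20 reads), the members with the smallest p of the flow cell test, the 3 lowest and 3 highest rho per trait, canonical genes outside the rule and the 5 most alike other genes. Cell type markers, translation factors, assembly factors and mTORC1 genes came from fixed lists, of which adipocyte markers (1 tested, 0 called) are not described further. Some genes that this rule names are not reported here. The members, lists and tests were chosen with earlier results of these data known.

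The depth was 789257 to 2263110 reads on genes per library. Intervals of shares are exact binomial 95% intervals. No sequence of these genes was at hand, and none is printed. Outcome groups were not used here. The analysis ran in Python 3.11.15 (scipy 1.17.1, numpy 2.4.6, pandas 2.3.3) and in R 4.3.3 (DESeq2 1.42.0, edgeR 4.0.16, limma 3.58.1).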

Additional observations from a re-analysis of the deposited data

Results flagged for a closer look

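In 6 of 126 groups of 4 libraries that were examined, 1 library stood apart from the other 3 of its flow cell, by Dixon's test at the 95% level. Chance flags about 1 in 20 such groups when they are independent and not chosen by their values. Many of these 126 were chosen from the same values, and some share reads, so that rate need not hold here. Cat 35 on flow cell B had the highest RPL3 value (1464.4, against 551 to 581), the highest share of reads on large subunit genes (4.28%, against 3.26% to 3.39%) and the lowest RPL26L1 value (48.1, against 61.3 to 62.0). Cat 36 on flow cell B had the highest RPS2 value (3683.5, against 2752 to 2833). Cat 29 on flow cell C had the highest RPL3L value (1282, against 351 to 477). Cat 38 on flow cell C had the lowest RPS14 value (34.6, against 88.7 to 92.0).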

How the results depend on the processing

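No paired analysis was possible because the replicate numbers are cat numbers and no cat was run on more than 1 flow cell. Of the members, 1 was called over the 3 flow cells, and 3, 0 and 0 between A and B, A and C, and B and C. DESeq2 called 5, 10, 1 and 0, against 7.72%, 7.21%, 5.66% and 0.264% of all genes. With every gene that had a read, 0 were called over the 3 flow cells and 1 between A and B, against 0.874% and 1.01% of all genes, and with at least 20 reads in 6 libraries these were 2 and 6 of 73, against 4.91% and 6.94%. Without cats 22 and 29, 0 were called over the 3 flow cells and 3 between A and B, against 0.895% and 2.97% of all genes. Without cats 11 and 31, an alternative chosen after seeing the data, 0 were called over the 3 flow cells and 0 between A and B. The share of all genes called was 0% in both. In these alternatives the cause was not tested. Leaving out each library in turn gave 0 to 2 called over the 3 flow cells, 0 to 4 between A and B and 0 to 1 between A and C. All genes called in these comparisons numbered 31 to 258, 42 to 386 and 9 to 284. Between A and B, 0 members were called without cat 11, 15 or 36, where 42, 63 and 147 genes were. For B against C, age and fibrosis, 0 members were called in every such run. Members with a negative rho numbered 68 to 72 for age and 25 to 66 for fibrosis. The other alternatives (edgeR, TMM, pseudocounts of 0.5 and 2) gave the same counts of called members as the main test. The large to small ratio was 1.36 to 1.38, and 1.02 without RPLP1 and RPL41 (added later). The mean share of reads was 5.67% to 5.97%, the mean RPL3L share 37.2% to 42.2% and the median departure 3.59 to 3.90. On reads without scaling, rho turned to -0.250 (RPS14) and -0.420 (RPL26L1) for age and to -0.323 (RPL7L1) for fibrosis. RPL26L1 was at -0.0714 for age without cats 11 and 31. Members with few reads, such as RPL36A and RPS27L, are limited by depth.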
